A study of Mus musculus with 6 samples.

Results

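The CXC chemokine ligands other than Cxcl12 were followed in endothelial progenitor cells (EPCs) cultured from mouse bone marrow. The 8 genes are Cxcl1, Cxcl2, Cxcl3, Cxcl5, Cxcl9, Cxcl10, Cxcl14 and Cxcl16. They were taken by symbol, matched to the Ensembl identifiers of the table, and not by their values, and make up 8 of the 21965 genes in the count table. The CAP group comprised 3 male C57BL/6J mice that inhaled concentrated ambient fine particles (CAP) at a mean of 67 µg/m3, for 6 h per day over 30 days. The air group comprised 3 male C57BL/6J mice that breathed filtered air on the same schedule. All of the mice were 11 weeks old on arrival and were acclimated for 1 week. Each group was housed in 1 cage, and effects of cage and of exposure cannot be told apart. Culture lasted 12 days by the sample labels and 10 days by the description of the method. Each library is poly-A RNA from the culture of 1 mouse.

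Chemokines are small secreted proteins that guide the movement of cells through G protein-coupled receptors, and in the CXC family the first pair of conserved cysteines is separated by 1 other residue. Members that carry the residues glutamate, leucine and arginine (ELR) just before these cysteines bind Cxcr2, attract neutrophils and promote the growth of blood vessels. Cxcl9 and Cxcl10 lack ELR, are induced by interferons and attract T and NK cells through Cxcr3. Cxcl16 is made as a transmembrane protein that is shed by the proteases Adam10 and Adam17, and its receptor is Cxcr6. Cxcl14 is expressed by many resting tissues, and its receptor is less well established. Bone marrow holds stromal cells, macrophages and megakaryocytes that make chemokines of this family.

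The ELR division is visible in the coding sequences. To show it, 45 bases around the first cysteine pair are given for each member from its GENCODE transcript, 5′ to 3′, with the ELR codons and the cysteine codons in capitals.
Cxcl1: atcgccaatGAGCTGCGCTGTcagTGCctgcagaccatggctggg
Cxcl2: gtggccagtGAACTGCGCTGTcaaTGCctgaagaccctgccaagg
Cxcl3: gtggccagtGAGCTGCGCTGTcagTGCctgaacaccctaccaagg
Cxcl5: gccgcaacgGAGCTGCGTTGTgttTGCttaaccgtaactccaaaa
Cxcl9: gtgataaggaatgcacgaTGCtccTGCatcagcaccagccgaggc
Cxcl10: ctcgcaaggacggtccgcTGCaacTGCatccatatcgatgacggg
Cxcl14: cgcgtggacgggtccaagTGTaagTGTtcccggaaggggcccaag
Cxcl16: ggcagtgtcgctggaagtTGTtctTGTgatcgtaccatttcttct
ELR stood directly before the cysteines in Cxcl1, Cxcl2, Cxcl3 and Cxcl5 and was absent there in Cxcl9, Cxcl10, Cxcl14 and Cxcl16. The encoded proteins are between 96 residues (Cxcl1) and 132 residues (Cxcl5) long, except for Cxcl16, which has 246. Cxcl2 and Cxcl3 are the closest relatives, with 82.0% identical residues and a longest shared stretch of transcript of 110 bases. Cxcl1 shares 67.7% of its residues with Cxcl2 and 60.4% with Cxcl3, but no stretch of transcript longer than 23 bases with either. Reads of Cxcl2 and Cxcl3 could therefore have been dropped or split between them, and their counts are uncertain. Cxcl9 and Cxcl10 are 33.7% identical.

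Library totals ranged from 28800409 to 30446171 counts in the CAP group and from 28713206 to 29063232 counts in the air group. CAP replicate 2 stood apart from the other libraries: its Pearson correlations with them on log2 values, across genes, were 0.92 to 0.95, and those among the other 5 libraries were 0.96 to 0.98. Markers of macrophages were abundant in the labelled EPC cultures, with a summed level of 377934 to 431658 normalized counts in CAP libraries, against 495209 to 512969 in air libraries, most of it from the lysozyme gene Lyz2. The 8 endothelial markers summed to 2786 to 3444 normalized counts in CAP libraries, against 2826 to 4835 in air libraries. Of these markers, 6 were lower and 2 higher in CAP. Eng, among the higher, supplied the largest part of the sum in every library. Among the lower was Cdh5, which encodes VE-cadherin. It had 189, 58.9 and 179 in CAP replicates 1 to 3, against 212, 239 and 958 in air replicates 1 to 3. Normalized counts here are counts divided by the library's size factor. Markers of other blood cells were mixed. Of the 8 neutrophil markers, Ly6g had no count in any library, 4 were higher and 3 lower in CAP. S100a8 had 135 to 146 normalized counts in CAP libraries, against 103 to 125 in air libraries. S100a9, among the lower, overlapped between the groups. The list summed to 325 to 439 in CAP libraries, against 262 to 482 in air libraries. Of the T and NK cell markers, Cd3d, Cd8a and Ncr1 had no count, while Cd4 had 492 to 741 in CAP libraries, against 465 to 903 in air libraries. Of the B cell markers, Ms4a1 had no count and Cd79b had 2.997 to 16.01 in CAP libraries, against 1.02 to 13.1 in air libraries. In bulk RNA, fewer cells of a type and less RNA per cell cannot be told apart.

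Levels of different genes were compared per length, as counts scaled to the library total (CPM) and divided by the kilobases of exon. Cxcl14 was the most abundant member, with a median of 23.2 over the 6 libraries and a range of 13.6 to 29.9. Cxcl5 followed with a median of 9.41 (6.47 to 12.5), and Cxcl16 with 8.96 (7.25 to 9.83). The ranges of Cxcl5 and Cxcl16 met, while Cxcl14 lay above both and Cxcl1 lay below both. With the length of the protein-coding transcript that has the longest coding sequence, Cxcl5 reached 14.8 and overlapped Cxcl14. Cxcl1 had a median of 1.94 (1.21 to 2.80), Cxcl10 of 0.440 (0.138 to 1.602) and Cxcl9 of 0.241 (0 to 0.604). Cxcl3, at 0.0786 (0.0596 to 0.228), and Cxcl2, at 0.0406 (0 to 0.283), were rare. Below Cxcl5 and Cxcl16, each neighbour in this order overlapped the next over the 6 libraries. Cxcl14 supplied 37.1% to 63.7% of the members' summed level per kilobase in a library. Cxcl5, the most abundant member with ELR, supplied 13.8% to 27.0%.

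**Figure D1:**
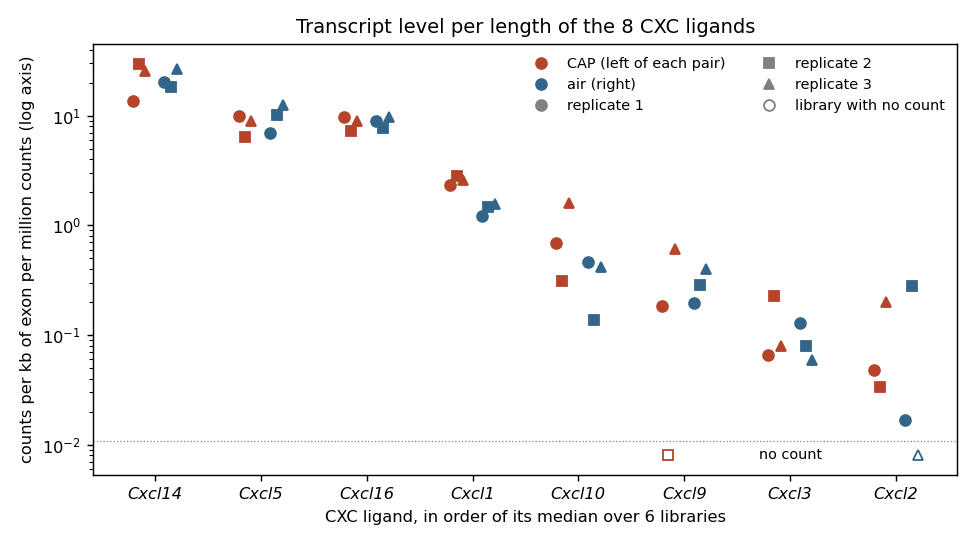
Level per length of the 8 CXC ligands, in CPM per kilobase of exon on a log axis, with 1 point per library and the CAP group left of the air group for each gene. Cxcl14 lies on top at 13.6 to 29.9, Cxcl5 and Cxcl16 overlap below it, and open symbols at the foot stand for libraries with no count.

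Summed over the 8 genes, the normalized counts were 2314, 2748 and 2975 in CAP replicates 1 to 3, against 2388, 2347 and 3128 in air replicates 1 to 3. The sums overlapped, with means of 2679 ± 335.6 in the CAP group and 2621 ± 439.6 in the air group (SD, n = 3 each). The 4 ELR ligands summed to 613.5 ± 79.6 in the CAP group and 631 ± 159 in the air group, and the other 4 to 2066 ± 369 in the CAP group and 1990.0 ± 336 in the air group (SD, n = 3 each). Cxcl12, the stromal ligand that is no member here, had 17374, 5242 and 40723 normalized counts in CAP libraries, against 49646, 64086 and 116980 in air libraries.

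Cxcl1, a neutrophil attractant of the ELR group, was the single member whose groups did not overlap. It had 126, 151 and 143 normalized counts in CAP replicates 1 to 3, against 66.2, 80.8 and 85.6 in air replicates 1 to 3. Every CAP library stood above every air library, and the means were 140 ± 12.8 in the CAP group and 77.6 ± 10.1 in the air group (SD, n = 3 each), a ratio of 1.81. The log2 fold change was 0.85 (standard error 0.27). Its adjusted p from edgeR's quasi-likelihood test with Benjamini-Hochberg adjustment was 0.521, which does not pass the threshold of 0.05. The unadjusted p of edgeR's test was 0.0122. Higher values in CAP without overlap were found for 8.44% of all genes tested, and an unadjusted p under 0.05 with a higher value in CAP for 5.67%. With DESeq2 the adjusted p of Cxcl1 was 0.225, and 0.172% of genes were called by that tool. With any 1 library left out, the log2 fold change of Cxcl1 stayed between 0.75 and 0.93. Several marker lists moved with the groups in the same libraries. Macrophage markers were lower in CAP for 6 of 8 genes and higher for 2, with sums that did not overlap. The 2 higher included Fcgr1, with 1643 to 1815 normalized counts in CAP libraries, against 1037 to 1204 in air libraries. Epithelial markers were higher for 4 of 5, with Krt8 at 0. The epithelial sums, mostly from Krt19, were 121 to 576 in CAP libraries, against 27.5 to 45.5 in air libraries. All 8 stromal markers had lower means in CAP, among them Col1a2 with a log2 fold change of -0.03 and Cxcl12 itself, which supplied much of the sum, with overlapping sums of 52081 to 129139 in CAP libraries, against 127508 to 203528 in air libraries. Their part in the Cxcl1 values was not tested.

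**Figure D2:**
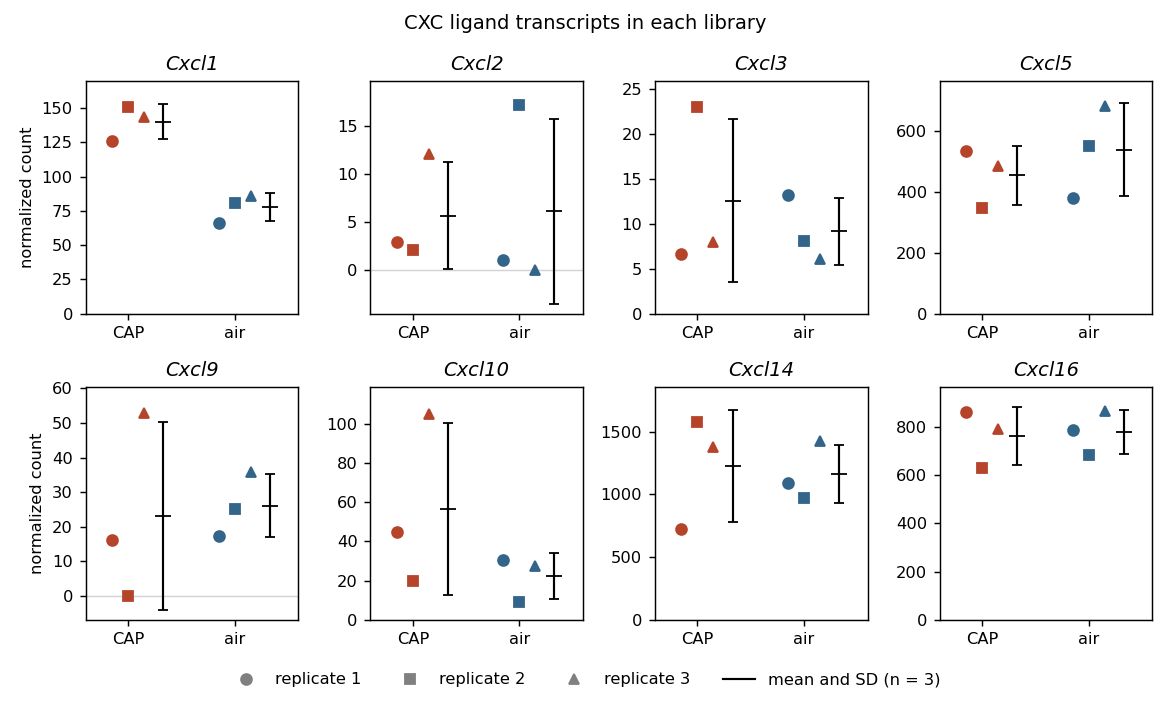
Normalized counts of each CXC ligand in every library, 1 panel per gene with its own axis, CAP left and air right, with points for libraries and bars for the mean and SD (n = 3 each). Cxcl1 is the gene whose groups are apart, at 126 to 151 in CAP and 66.2 to 85.6 in air.

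Cxcl1, Cxcl2 and Cxcl3 share a promoter element. NF-kB, the factor through which IL-1 and TNF induce these genes, recognises a known consensus, and the RefSeq promoters (GRCm38.p6, 250 bases before to 50 after the start) were searched for it. The promoter of Cxcl1, at chr5:90890995-90891294 on the plus strand, is shown whole because Cxcl1 is the member whose groups were apart, with the match in capitals. The corresponding 40 bases are shown for Cxcl2 (chr5:90903788-90903827, plus strand) and Cxcl3 (chr5:90786014-90786053, plus strand).
Cxcl1: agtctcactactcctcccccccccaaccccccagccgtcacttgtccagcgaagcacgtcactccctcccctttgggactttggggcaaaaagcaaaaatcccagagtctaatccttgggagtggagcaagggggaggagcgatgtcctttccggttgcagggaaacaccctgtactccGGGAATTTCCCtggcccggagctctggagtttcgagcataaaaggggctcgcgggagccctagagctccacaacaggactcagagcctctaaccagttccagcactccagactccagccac
Cxcl2: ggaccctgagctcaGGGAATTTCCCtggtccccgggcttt
Cxcl3: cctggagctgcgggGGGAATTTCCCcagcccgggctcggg
The match begins at position -71 of the Cxcl1 start, -97 of Cxcl2 and -73 of Cxcl3, and its capitals are identical in all 3. It reads as the consensus on both strands, shifted by 1 base. The consensus was present in 8.46% of 32851 promoters of this length, and a match is a description of letters, not of binding. The 4 ELR ligands lie together on chromosome 5 on the plus strand, with Cxcl5 at 90759360-90761624, Cxcl3 at 90786103-90789600, Cxcl1 at 90891241-90893115 and Cxcl2 at 90903871-90905938 (GRCm38).

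Cxcl2 and Cxcl3, which act on the same receptor as Cxcl1, were rare. Cxcl2 had raw counts of 3, 2 and 12 in CAP replicates 1 to 3, against 1, 17 and 0 in air replicates 1 to 3. Its highest library, air replicate 2, had an exact Poisson 95% interval of 9.90 to 27.2 counts, and the count of 0 in air replicate 3 had one of 0 to 3.69 counts. The groups overlapped, at a log2 fold change of -0.11 (standard error 1.499), for which edgeR's quasi-likelihood test gave an adjusted p of 0.986, and leaving out air replicate 2 gave 3.18 and leaving out CAP replicate 3 gave -1.28. Cxcl3 had raw counts of 7, 23 and 8 in CAP replicates 1 to 3, against 13, 8 and 6 in air replicates 1 to 3. CAP replicate 2 alone was high. The log2 fold change of Cxcl3 came to 0.45 (standard error 0.88), and edgeR's test gave an adjusted p of 0.869. Without CAP replicate 2 the log2 fold change was -0.32.

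Cxcl5 was the most abundant ELR ligand among the 8 members. Its normalized counts were 535, 347 and 484 in CAP replicates 1 to 3, against 380.0, 551 and 684 in air replicates 1 to 3. The groups overlapped, and CAP replicate 2 was lowest and air replicate 3 highest. The log2 fold change came to -0.24 (standard error 0.26), and edgeR's quasi-likelihood test gave an adjusted p of 0.738. It was -0.08 without CAP replicate 2, the library that stood apart, -0.37 without CAP replicate 1, -0.03 without air replicate 3 and -0.44 without air replicate 1.

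The interferon-inducible ligands Cxcl9 and Cxcl10 lie side by side on the minus strand of chromosome 5, at 92321347-92328079 and 92346638-92348889. Cxcl9 had raw counts of 17, 0 and 53 in CAP replicates 1 to 3, against 17, 25 and 35 in air replicates 1 to 3. CAP replicate 2 had none, with an exact Poisson 95% interval of 0 to 3.69 counts, while CAP replicate 3 was the highest of the 6. The log2 fold change came to -0.18 (standard error 1.13), and edgeR's quasi-likelihood test gave an adjusted p of 0.965. It was -1.66 without CAP replicate 3 and 0.40 without CAP replicate 2. Cxcl10 had 44.8, 19.98 and 105 normalized counts in CAP replicates 1 to 3, against 30.6, 9.09 and 27.5 in air replicates 1 to 3. CAP replicates 1 and 3 were above all air libraries and CAP replicate 2 was within the air range. The group means of Cxcl10 were 56.6 ± 43.8 in CAP and 22.4 ± 11.6 in air (SD, n = 3 each). The log2 fold change of Cxcl10 came to 1.33 (standard error 0.72), and edgeR's test gave an adjusted p of 0.535. It was 0.53 without CAP replicate 3 and 1.73 without CAP replicate 2. Art3, a gene on the opposite strand whose exons overlap those of Cxcl10, had 21.9, 6.99 and 27.0 normalized counts in CAP replicates 1 to 3, against 11.2, 59.6 and 24.5 in air replicates 1 to 3, and its reads could have been mixed with those of Cxcl10 if strand was not used in the counting.

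The promoter of Cxcl10 (chr5:92348840-92349139, minus strand) is shown because Cxcl10 had the largest fitted difference of the 8 members. Capitals mark matches to the core of the interferon-stimulated response element (ISRE), GAAANNGAA, at position -213 and to the NF-kB consensus at -159 and at -104 with an overlapping match at -103.
Cxcl10: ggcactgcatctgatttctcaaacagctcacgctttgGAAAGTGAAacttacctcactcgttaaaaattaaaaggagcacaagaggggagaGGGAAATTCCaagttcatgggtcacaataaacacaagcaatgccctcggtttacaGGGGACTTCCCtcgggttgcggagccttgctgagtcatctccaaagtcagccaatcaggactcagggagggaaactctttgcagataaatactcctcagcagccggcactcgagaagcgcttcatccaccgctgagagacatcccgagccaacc
The ISRE core on either strand was present in 8.56% of the 32851 promoters. Among the 6 members with a RefSeq promoter (Cxcl1, Cxcl2, Cxcl3, Cxcl9, Cxcl10 and Cxcl14), it was also found in Cxcl9 at -175 and in Cxcl14 at -172. The STAT site TTCNNNGAA was found in Cxcl14 alone, at -191, and in 8.30% of all promoters. TATAAA was found in Cxcl3 at -30 and in Cxcl9 at -195, and in 13.6% of all promoters.

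**Figure D3:**
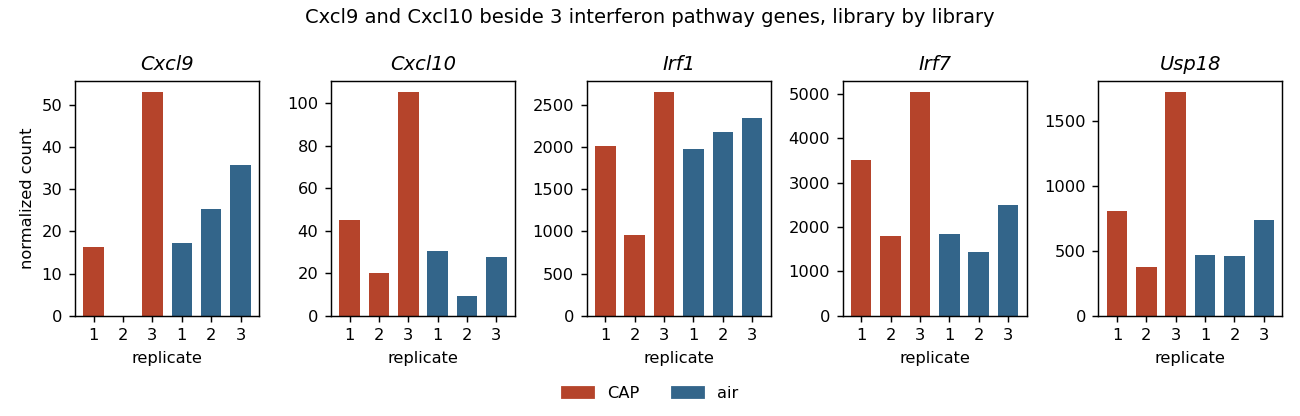
Normalized counts of Cxcl9, Cxcl10 and 3 genes of the interferon pathway (Irf1, Irf7 and Usp18) in each library, CAP replicates 1 to 3 left and air replicates 1 to 3 right, each panel starting at 0. CAP replicate 2 has no count of Cxcl9 and is low for all 5 genes among the CAP libraries, and CAP replicate 3 is the highest library for each.

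Irf7, which drives type I interferon genes, and Usp18, an inhibitor of interferon receptor signalling, followed the same order among the CAP libraries. Irf7 had 3503, 1793 and 5042 normalized counts in CAP replicates 1 to 3, against 1834, 1426 and 2509 in air replicates 1 to 3. Usp18 had 805, 374 and 1722 in CAP replicates 1 to 3, against 468, 461 and 741 in air replicates 1 to 3. The groups of both genes overlapped. Socs3, an inhibitor of cytokine signalling, overlapped as well, at a log2 fold change of -0.62, while Ifngr1, a chain of the interferon gamma receptor, was lower in every CAP library than in any air library, at -0.26. Of 18 genes chosen for interferon signalling, 16 were tested, 7 were higher and 9 lower in CAP and 0 passed. Their median log2 fold change was -0.08, beside -0.01 over all genes tested. Ifng and Ifnb1, the genes of the list that encode interferons, had no count in any library and were not tested.

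Cxcl14 and Cxcl16 were the members with the smallest fitted differences. Cxcl14, on the minus strand of chromosome 13 at 56288643-56296551, had 721, 1575 and 1377 normalized counts in CAP replicates 1 to 3, against 1092, 972 and 1425 in air replicates 1 to 3. The highest and the lowest library were both in the CAP group. Its log2 fold change came to 0.07 (standard error 0.28), and edgeR's quasi-likelihood test gave an adjusted p of 0.941. Without CAP replicate 2 it was -0.15. Cxcl16, on the minus strand of chromosome 11 at 70453983-70459984, had 862, 630.4 and 792 in CAP replicates 1 to 3, against 788, 684 and 864 in air replicates 1 to 3. The groups overlapped over nearly their whole range. Its log2 fold change came to -0.03 (standard error 0.17), and edgeR's test gave an adjusted p of 0.959. Exons of Cxcl16 meet those of Zmynd15 on the other strand, whose normalized counts were 23.8, 34.0 and 42.0 in CAP libraries, against 37.7, 40.4 and 46.9 in air libraries. The shedding proteases of Cxcl16 did not pass either: Adam10 had 4479, 6123 and 4422 normalized counts in CAP libraries, against 4177, 6707 and 4890 in air libraries, and the adjusted p of Adam17 by edgeR's test was 0.686.

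**Figure D4:**
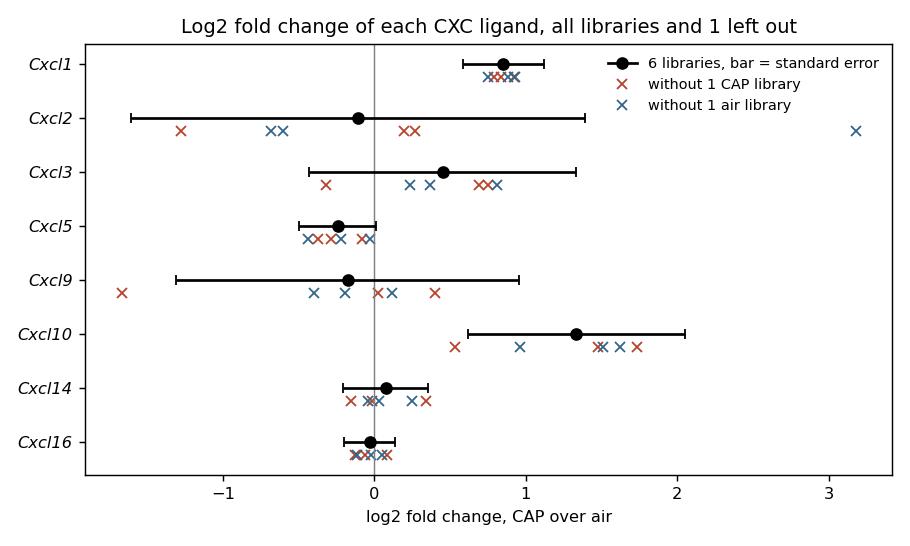
Log2 fold change of each CXC ligand, CAP over air, for all 6 libraries with its standard error and with each library left out in turn. Cxcl1 stays between 0.75 and 0.93, Cxcl10 stays above 0 between 0.53 and 1.73, and Cxcl2 spreads from -1.28 to 3.18.

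All 8 members passed the filter of 10 counts in total, and edgeR's quasi-likelihood test called 0 of them at an adjusted p of 0.05, beside 0.0% of the 14792 genes tested. Of all genes, 1387 (9.38%) had an unadjusted p under 0.05, 5.67% with higher and 3.7% with lower values in CAP, and DESeq2 called 24 genes, none of them a member. Among the members, the log2 fold change was above 0 for 4 and below 0 for 4, beside 48.8% of all genes with a positive one, and their median was 0.02, beside -0.01 over all genes. The single unadjusted p under 0.05 and the single gene without overlap, both Cxcl1, stand beside shares of 9.38% and 16.9% of all genes, where the groups without overlap were higher in CAP for 8.44% and lower for 8.46%.

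The receptors of these ligands were unequally present. Cxcr2, the receptor of the ELR ligands, had at most 3.03 normalized counts in a library, and Cxcr6, the receptor of Cxcl16, had 1 count in all. Cxcr3, the receptor of Cxcl9 and Cxcl10, had 35.3, 28.0 and 34.0 normalized counts in CAP replicates 1 to 3, against 83.5, 78.8 and 71.4 in air replicates 1 to 3. Every CAP library was below every air library, at a log2 fold change of -1.26 (standard error 0.35), for which edgeR's quasi-likelihood test gave an adjusted p of 0.521. The authors, who used DESeq2, listed Cxcr3 as downregulated in CAP, and also reported it lower by quantitative PCR. Cxcr1, a second receptor of ELR ligands, had 20.03, 34.97 and 10.01 in CAP replicates 1 to 3, against 6.11, 1.01 and 5.10 in air replicates 1 to 3, so that its groups did not overlap either. Its log2 fold change came to 2.38 (standard error 0.96), and edgeR's test gave an adjusted p of 0.521. Of the 8 receptors listed, 4 were tested, 1 was higher and 3 were lower in CAP. Cxcr4 and Ackr3, the receptors of Cxcl12, had log2 fold changes of -0.21 and -0.19, and their groups overlapped.

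Of the 7 other CXC ligands, 5 were tested, and all 5 had negative log2 fold changes, with a median of -1.41, that of Cxcl13, and 0 past the threshold. Of all genes tested, 48.8% had a positive one. Cxcl12 and Pf4 had an unadjusted p under 0.05 and were lower in CAP, which was the case for 3.7% of all genes. Ppbp, another platelet chemokine, overlapped between the groups, at a log2 fold change of -0.44. Cxcl15 had 0 counts in the CAP group and 12 in the air group, all of them in air replicate 3. Pf4, the platelet factor made by megakaryocytes, had 5684, 2523 and 5884 normalized counts in CAP replicates 1 to 3, against 7947, 9549 and 9433 in air replicates 1 to 3. Its groups were apart, at a log2 fold change of -0.93 (standard error 0.29), for which edgeR's quasi-likelihood test gave an adjusted p of 0.521. The authors' list of downregulated genes from DESeq2 includes Pf4. Pf4 is itself in the megakaryocyte list and supplied most of its sum in every library. The sums were 3083 to 6833 in CAP libraries, against 8791 to 10602 in air libraries, and so largely repeat Pf4. Lower values in CAP were found for 5 of the 5 markers, with Itga2b at a log2 fold change of only -0.03.

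Lists of pathways known to act on these transcripts showed 0 genes past the threshold. Of 14 NF-kB genes tested, 7 were higher and 7 lower in CAP, with a median log2 fold change of 0.00. Tnfaip3, an inhibitor of NF-kB that NF-kB induces, had 1288, 1306 and 1333 normalized counts in CAP replicates 1 to 3, against 1006, 1094 and 1223 in air replicates 1 to 3. Its groups did not overlap, and its adjusted p by edgeR's test was 0.534. Ikbkg, a subunit of the kinase that activates NF-kB, was also higher in CAP without overlap, at a log2 fold change of 0.27. The inhibitor Nfkbie went the other way, with 237, 209 and 244.2 in CAP replicates 1 to 3, against 244.5, 282 and 324 in air replicates 1 to 3, without overlap and at a log2 fold change of -0.30. Nfkbiz, a further regulator that NF-kB induces, overlapped between the groups, at -0.45. Of 13 genes tested for IL-1, TNF and IL-17 signalling, 6 were higher and 7 lower in CAP, with a median of -0.12. Il1rn, the antagonist of the IL-1 receptor, had 1781, 356 and 4469 in CAP replicates 1 to 3, against 4298, 5342 and 10473 in air replicates 1 to 3, where CAP replicate 3 lay within the range of air. Il1r1 and Il1rap, the chains of the IL-1 receptor, overlapped at log2 fold changes of -0.86 and -0.29. Il17rc, a chain of the IL-17 receptor, was higher in CAP without overlap, at 0.34. Another chain of that receptor, Il17ra, was lower in CAP without overlap, at -0.14. Il1b, which encodes IL-1 beta, was under the count minimum. Among 9 tested regulators of chemokine mRNA decay, 6 were higher and 3 lower in CAP, with a median of 0.08. Zfp36, which encodes tristetraprolin, a protein that binds AU-rich mRNAs and speeds their decay, had 1581, 1454 and 1400 normalized counts in CAP replicates 1 to 3, against 1022, 891 and 1066 in air replicates 1 to 3. Every CAP library was above every air library, at a log2 fold change of 0.57 (standard error 0.13), for which edgeR's quasi-likelihood test gave an adjusted p of 0.521. Zfp36l1, a relative of the same function, had 3099, 1482 and 3769 normalized counts in CAP replicates 1 to 3, against 3660, 4629 and 4814 in air replicates 1 to 3. Here CAP replicate 3 lay within the air range, and the log2 fold change was -0.65 (standard error 0.30). Elavl1 and Hnrnpd, which also bind AU-rich mRNAs, overlapped at 0.19 and 0.26.

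Proteases and glycosaminoglycan carriers, which cut CXC ligands or hold them at the cell surface, were also followed. Of 11 proteases tested, 3 were higher and 8 lower in CAP, with a median of -0.07 and 0 past the threshold. Dpp4, which trims Cxcl9 and Cxcl10, had 16.2, 1.998 and 19.0 normalized counts in CAP replicates 1 to 3, against 7.13, 23.2 and 27.5 in air replicates 1 to 3, with overlap. Among the metalloproteinases, the groups of Mmp2, Mmp9, Mmp12 and Mmp14 overlapped, at log2 fold changes of -0.70, -1.77, 0.69 and -0.32. Of 17 carriers tested, 11 were higher and 6 lower in CAP, with a median of 0.08, and 3 had an unadjusted p under 0.05, all higher in CAP, against 5.67% of all genes. They were the glypican Gpc1, the sulfotransferase Hs6st2 and the proteoglycan Cspg4. Gpc1 had 3606, 4313 and 3635 normalized counts in CAP replicates 1 to 3, against 3316, 2840 and 2526 in air replicates 1 to 3, without overlap. Gpc4, another glypican, was lower in every CAP library than in any air library, at a log2 fold change of -0.48.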

How the data were processed

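Messenger RNA of bone marrow EPC cultures was sequenced from 3 CAP mice and 3 air mice. The authors used STAR 2.6 to align the single-end reads of stranded poly-A libraries to mm10 and HTSeq 0.10.0 to count them, and deposited raw counts per gene, 1 column per mouse. The sources used here do not give the annotation release, the strand option or how multi-mapped reads were handled.

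The counts were scaled by relative log expression (RLE) size factors. Genes had to reach a total of 10 counts, which left 14792. These were fitted together in R 4.3.3 with the quasi-likelihood test of edgeR 4.0.16, CAP minus air, and p-values were adjusted over all of them by the Benjamini-Hochberg method at 0.05. Standard errors were derived from the F statistic, as the size of the log2 fold change over the root of F. The biological coefficient of variation between mice was 26.3%. Poisson intervals (95%, exact) cover counting error only.

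Gene symbols and positions are those of GENCODE vM21 (GRCm38), and promoters came from RefSeq (GRCm38.p6). Coding windows and protein lengths came from GENCODE transcripts; RefSeq proteins were not used here. Motifs were searched on both strands, and matches may overlap.

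The members and the gene lists were chosen with earlier results of these data known. All 8 members are named, with the 4 tested genes of lowest p in each list, Cxcr1, Cxcr2, Cxcr3, Cxcr6, Adam10, Adam17 and Dpp4 and, for each member averaging at least 10 normalized counts, the 3 genes most like it. Genes under the count minimum, genes overlapping a member, Cxcl13, Il17ra and single markers are named besides. Alternatives were TMM normalization, no count minimum, edgeR's filterByExpr, DESeq2 1.42.0, limma-voom (limma 3.58.1), replicate number as a block, and omission of each library in turn.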

Additional observations from a re-analysis of the deposited data

How the results depend on the processing

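With edgeR 0 genes passed the adjusted threshold, against 1387 at an unadjusted p under 0.05, with DESeq2 24 passed, and leaving out each library gave 0 to 0; no member passed under any alternative run. The replicate numbers, taken from the sample titles, were not treated as pairs (the column names carry other numbers, of which the groups share 1). Correlations of same-numbered deviations were -0.02, 0.09 and 0.17, and those of differently numbered ones -0.20 to 0.11. So few libraries cannot settle whether the numbers pair the samples. A replicate block left 0 genes called. Cxcl2 alone changed sign by tool, with 0.96 under limma-voom and 0.78 with the replicate block. filterByExpr left out Cxcl2 and Cxcl3. Leaving out each library in turn gave log2 fold changes of 0.75 to 0.93 for Cxcl1, -1.28 to 3.18 for Cxcl2, -0.32 to 0.81 for Cxcl3, -0.44 to -0.03 for Cxcl5, -1.66 to 0.40 for Cxcl9, 0.53 to 1.73 for Cxcl10, -0.15 to 0.34 for Cxcl14 and -0.13 to 0.0833 for Cxcl16. Members of positive sign then numbered 3 to 6, and those without overlap 1 to 2. Cxcl1 had to remain among the latter, since groups that are apart stay apart when a library is left out. In the order of levels per kilobase, 2 members changed place with the longest transcript. With the protein-coding transcript that has the longest coding sequence, 2 members changed place. That setting was chosen after seeing the data, and under it the ranges of Cxcl14 and Cxcl5 also met. The causes were not tested.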

Other observations

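Each member was compared with the tested genes averaging at least 100 normalized counts by the Pearson correlation of log2 values, with a pseudocount of 1, over the 6 libraries. The values given are the highest of 10927 genes compared over 6 libraries in 2 groups, and are a description. For Cxcl9 the most alike gene was Irf1, a transcription factor induced by interferon gamma, at r = 0.999 over 6 libraries and 0.99 without CAP replicate 2, followed by Lrch1 (0.997) and Gnptg (0.996). Irf1 had 2017, 955 and 2650 normalized counts in CAP replicates 1 to 3, against 1981, 2174 and 2344 in air replicates 1 to 3. For Cxcl1 the most alike genes were Golga3 (0.98), Mavs, an adaptor of antiviral RNA sensing (0.97), and Atxn2 (0.97). For Cxcl14 they were Phldb2 (0.98), Zc3h12a, an RNase that degrades inflammatory mRNAs (0.97), and Isy1 (0.96). For Cxcl3 they were Nedd4l (0.998), Orai1 (0.991) and Rps27a (0.982), for Cxcl5 Zfp398 (0.983), Bst1 (0.981) and Trim30c (0.98), for Cxcl10 Lima1 (0.995), Xkr8 (0.977) and Anxa6 (0.959), and for Cxcl16 Cdc42ep4 (0.995), Tnrc18 (0.995) and Hlx (0.993). Cxcl2 averaged under 10 normalized counts and was left out.

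The members did not share one pattern. Of their 28 pairs, 12 had a positive correlation over the 6 libraries. Cxcl3 and Cxcl5, both ELR ligands of the same cluster, stood at -0.92, and Cxcl9 and Cxcl10, both induced by interferons, at 0.36. Raw counts of Cxcl3 were low, at 6 to 23 in a library, and uncertain because of sequence shared with Cxcl2. CAP replicate 2 was the highest library for Cxcl1, Cxcl3 and Cxcl14 and the lowest for Cxcl5, Cxcl9 and Cxcl16.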
